A study of Mus musculus with 48 samples.

Results

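Astrocytes (AC) sorted from the contralateral hemisphere of mice with a unilateral stroke were described here by the genes they held at higher or lower levels than the other 3 cell types of the neurovascular unit (NVU) from the same hemisphere, namely endothelial cells (EC), pericytes (PC) and microglia (MG). The members are the 6 contralateral AC libraries of the 48 RNA-sequencing libraries in the series, and they were set against 6 contralateral libraries each of EC, PC and MG. All groups were adult male wild-type C57BL/6 mice with a right middle cerebral artery occlusion of 1 h and 23 h of reperfusion, and the contralateral hemisphere is the one that was not occluded, so that every group used here comes from animals after a stroke and none from sham-operated animals. Each replicate was a pool of 3 to 4 mice, and the 4 cell types of a replicate were isolated from the same pooled tissue. AC were sorted as CD45-negative cells with high ACSA2, an epitope of the Na/K-ATPase subunit encoded by *Atp1b2*, and without NG2, PDGFRβ and VE-cadherin, EC as ACSA2-negative VE-cadherin-positive cells, PC as ACSA2-negative cells positive for NG2 and PDGFRβ, and MG as CD45-low CD11b-positive cells. No antibody against oligodendrocytes or ependymal cells was part of the gate. Digestion also differed within a pool, since vessel fragments kept on a mesh went through homogenization and collagenase steps that the flow-through with the glial cells did not, before both were combined for sorting. In the comparisons of AC with EC and PC, cell type and digestion therefore cannot be told apart, whereas AC and MG went through the same steps.

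Astrocytes are glial cells whose endfeet cover brain vessels and whose fine processes surround synapses. They are known for clearing glutamate and γ-aminobutyric acid (GABA), buffering potassium, moving water, coupling to each other through gap junctions, storing glycogen, and supplying lipoproteins and L-serine to neighbouring cells. EC form the blood–brain barrier, PC lie on capillaries within the basement membrane, and MG are the resident macrophages of the brain.

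The deposited values are normalized counts, that is, reads per gene scaled for sequencing depth and rounded to whole numbers, and they summed to 10936238 to 15633875 per contralateral library. The steps between low values put the worth of 1 read at an estimated 0.66 to 1.34 normalized counts and reads on genes at 9100000 to 16500000 per library, with medians of 12000000 in AC, 12550000 in EC, 11800000 in PC and 11750000 in MG. AC libraries listed 14400 to 15051 genes above 10 normalized counts, against 11391 to 13499 in the other 18 libraries. Across genes, which do not replicate each other, Pearson's r was 0.841 to 0.936 between AC libraries and 0.522 to 0.762 between an AC library and one of another cell type. In bulk RNA a lower level may stand for fewer cells of a type or for less RNA per cell, and these cannot be told apart.

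All 4 markers of astrocytes were highest in the libraries labelled as AC. *Slc1a3*, the glutamate transporter GLAST, was between 44740 and 78661 normalized counts in the 6 AC libraries with a median of 63027, and at most 703 in EC, 560 in PC and 3285 in MG. *Gfap*, an intermediate filament of astrocytes, lay between 2213 and 17352 with a median of 3823, and was at most 204 in any of the other 18 libraries. The 2 highest AC values of *Gfap*, 11055 and 17352, were those of replicates 5 and 6. *Aqp4*, the water channel of astrocytic endfeet, ranged from 5623 to 15696 against at most 166 elsewhere, and *Aldh1l1*, a folate enzyme, from 4075 to 10807 against at most 178. No AC library overlapped a library of another cell type for any of the 4 markers. The smallest of the 3 log2 differences of each marker was 4.40 for *Slc1a3* (AC against MG, SE 0.84), 5.94 for *Gfap* (AC against MG), 7.30 for *Aqp4* and 7.32 for *Aldh1l1* (both against MG), with a largest adjusted p of 9.93e-05 (limma, 6 libraries per group).

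**Figure D1:**
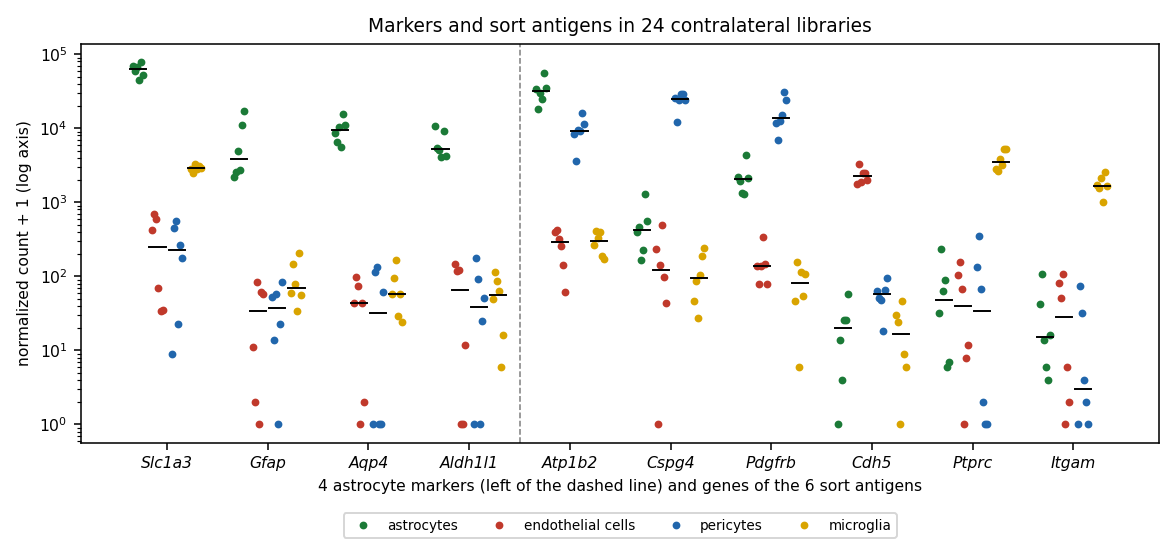
Normalized counts plus 1 (log axis) of the 4 astrocyte markers and of the genes of the 6 sort antigens, with 1 point for each of the 24 contralateral libraries, coloured by cell type, and a bar at the median of each group. The 6 AC libraries lie above all others for *Slc1a3*, *Gfap*, *Aqp4* and *Aldh1l1*, while *Atp1b2* is also high in PC, at a mean of 9717 against 32868 in AC.

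The genes of the sort antigens were not findings between groups, because these proteins chose the cells. *Atp1b2* was between 18115 and 56109 normalized counts in AC, and its level in the ACSA2-negative PC, with a mean of 9717, was far above its means of 266.8 in EC and 292.3 in MG. *Pdgfrb* and *Cspg4*, which encode the PDGFRβ and NG2 antigens that AC were gated against, averaged 2210 and 513.2 normalized counts in AC. *Cdh5*, *Ptprc* and *Itgam*, which encode VE-cadherin, CD45 and CD11b, averaged 20.3, 71.5 and 30.8.

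RNA of cells outside the 4 sorted types was present in the AC libraries, and its part in the results that follow was not tested. The summed level of 10 oligodendrocyte markers was 195126, 308951, 277773, 431702, 202223 and 52509 normalized counts in AC replicates 1 to 6, against 11646 to 26063 in EC, 1436 to 40533 in PC and 1994 to 11726 in MG, so that the AC libraries lay above all 18 others. None of the 10 markers was at 0 throughout the AC libraries. *Mbp*, myelin basic protein, was at 6523 to 57729 normalized counts in AC, and per kb of exon its AC mean was 4254 normalized counts, between the 7258 of *Slc1a3* and the 1613 of *Gfap* on the same scale, with 1544 for *Aqp4* and 1434 for *Aldh1l1*. Of the 10 markers 9 were called higher in AC than in all 3 others, among them *Mbp*, *Mog*, *Mag*, *Mobp* and *Cnp*, and *Mal* was not. Of 9 markers of oligodendrocyte precursors, 5 were called higher, with a sum of 8349 to 28266 in AC against at most 575 in EC and MG and 15519 to 29787 in PC, whose NG2 gene *Cspg4* is on this list, and *Pdgfra*, which defines these cells, was at 18 to 117.

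AC replicates 5 and 6 held more RNA of ependymal markers than replicates 1 to 4, and the cause was not tested. The summed level of 10 ependymal markers was 2175 to 4952 normalized counts in replicates 1 to 4 and 17135 and 30939 in replicates 5 and 6, and was at most 1925 in the other 18 libraries. *Foxj1*, the transcription factor of motile cilia, was at 87, 150, 227 and 571 in replicates 1 to 4 and at 1094 and 1830 in the other two. Of these 10 markers 9 were called higher in AC than in all 3 others. The labels give no batch for these replicates. Neuronal markers summed to 1071 to 5346 in AC, which overlapped the 968 to 2679 in EC, against at most 1734 in PC and 268 in MG, and 4 of 10 were called higher (*Syt1*, *Syp*, *Nefl* and *Tubb3*), while *Rbfox3*, which encodes NeuN, was at 1 to 25. Of 8 choroid plexus markers 1 was called higher (*Otx2*), of 10 progenitor markers 3 (among them *Egfr* and *Sox11*), and of 6 fibroblast and 5 erythrocyte markers none. The choroid plexus sum was 4992 to 15573 in AC and up to 114957 in EC, the progenitor sum 2367 to 3409 in AC and 3740 to 15923 in EC, the fibroblast sum 561 to 1702 in AC and 5039 to 14271 in PC, and the erythrocyte sum 1689 to 19014 in AC and up to 78354 in EC. Relative to their level in their own sorted cells, summed EC markers stood at 1.24 to 3.46% in AC libraries, PC markers at 1.71 to 6.33% in replicates 1 to 4 and 9.76 to 15.0% in replicates 5 and 6, highest in replicate 5, and MG markers at 0.708 to 6.52% in replicates 1 to 4, with the highest value in replicate 2, and 0.350 to 0.450% in replicates 5 and 6.

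**Figure D2:**
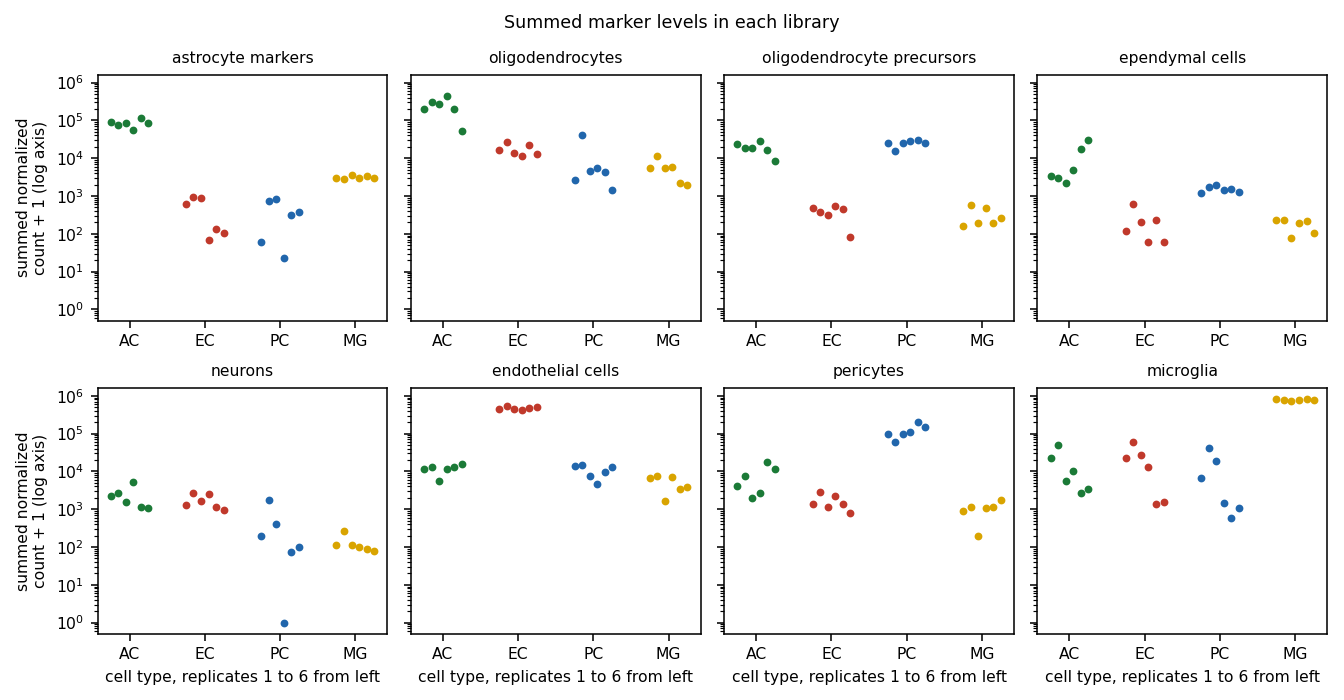
Summed normalized counts plus 1 (log axis) of the 4 astrocyte markers and of the marker lists of 7 other cell types, with 1 point for each library of AC, EC, PC and MG, replicates 1 to 6 from left to right. In AC the oligodendrocyte sum was 52509 to 431702, and the ependymal sum was 17135 and 30939 in replicates 5 and 6 against at most 4952 in replicates 1 to 4.

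Of 24973 genes, 17470 had a mean of at least 10 normalized counts in 1 or more of the 4 groups and were tested. A gene was called where the adjusted p was at most 0.05 and the difference at least 1.5-fold on the log2(normalized count + 1) scale, which understates the difference of low genes. AC were higher than EC for 5787 genes (33.1% of those tested) and lower for 2809 (16.1%). They were higher than PC for 5493 (31.4%) and lower for 2561 (14.7%), and higher than MG for 5572 (31.9%) and lower for 3344 (19.1%). These 3 comparisons share the same 6 AC libraries. The median difference over all genes tested was itself above 0, at log2 0.48 against EC, 0.48 against PC and 0.27 against MG, and changes are to be read relative to it. Called in the same direction in all 3 comparisons were 2812 genes higher in AC (16.1%) and 575 lower (3.29%). At least 4-fold in all 3 comparisons were 2272 higher (13.0%) and 158 lower (0.904%). With replicates 1 to 4 alone, without the pair of replicates rich in ependymal RNA, 2235 genes were higher and 434 lower.

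Of the 2812 higher genes, 2289 (81.4%) were protein coding, close to the 83.2% of all genes tested, and of the 575 lower genes 548 (95.3%) were. For 1500 of the higher genes (53.3%) the lowest AC library lay above the highest of the 18 others, which held for 9.15% of all genes tested. For 229 of the lower genes (39.8%) the highest AC library lay below the lowest of the others, against 1.35% of all genes tested. By mean normalized count, PC were the highest of the 3 other cell types for 1264 of the higher genes, EC for 878 and MG for 670. The median of the smallest of the 3 differences was log2 3.36 for the higher and -1.23 for the lower genes, and for 353 higher genes it was 6 or more.

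**Figure D3:**
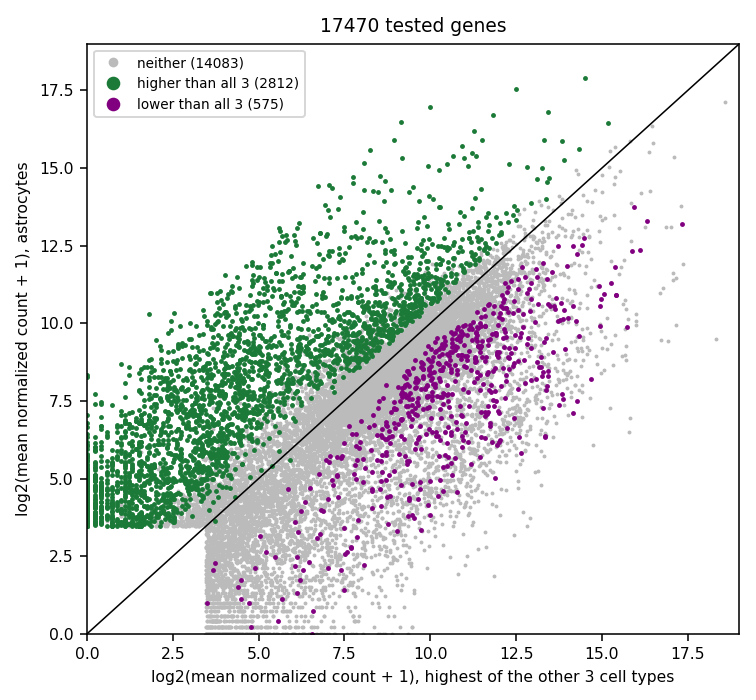
Mean level in AC against the mean of the highest of the other 3 cell types, as log2(mean normalized count + 1), for 17470 genes, with the line of equality. Green points, 2812 genes higher in AC than in all 3 others, lie almost all above the line and fill most of that side, while the 575 lower genes in purple lie below it among many genes called in neither direction, which were low against some of the other cell types and not all.

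For 175 of the 2812 genes all 18 other libraries were listed at 0. Such a gene passes the filter on the mean only through AC, so that the direction of its call was fixed in advance. The 3 with the highest AC mean were *Prss56*, which encodes a serine protease, at 105 to 448 normalized counts, *Egfl6*, a secreted protein with EGF-like repeats, at 171 to 438, and *Sypl2*, a synaptophysin-like membrane protein, at 89 to 211. Against a floor of 3 reads in each of the other libraries, a mean of 3.01 normalized counts, they were at least 106.5-fold, 102.7-fold and 43.8-fold higher in AC. These limits cover counting error only. Next by AC mean were *Cfap221*, at 0 to 316 in the AC libraries, and *Dthd1*, at 0 to 293. Not every such gene was therefore present in all AC libraries. The direction was fixed in the same way for any higher gene whose means in EC, PC and MG all lay below the minimum of the filter. The number of these genes among the 2812, and among those at least 4-fold higher, is not given here.

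The 12 genes furthest above all 3 other cell types without overlap between libraries had smallest log2 differences of 8.63 to 9.43, with a largest adjusted p of 1.07e-05. First was *Luzp2* (chr7:54835615-55268885, GRCm38), a leucine zipper protein, with 4300 to 7333 normalized counts in AC and at most 187 in the other libraries. Next came *Rfx4*, a transcription factor of the RFX family, at 909 to 1847 against at most 29, and *Rorb*, a nuclear receptor, at 771 to 1861 against at most 13. No library of EC, PC or MG came near the AC range of these 3 genes. The transporters among the 12 were *Slc6a11*, the GABA transporter GAT3, at 11171 to 38738 against at most 199, and *Slc13a5*, a citrate transporter, at 514 to 1275 against at most 27. *Kcnn2*, a calcium-activated potassium channel, ranged from 1129 to 2973, and *Ppp1r3g*, a glycogen-targeting subunit of protein phosphatase 1, from 881 to 4118 against at most 49. The remaining genes were *Cyp4f14* and *Cyp4f15*, cytochrome P450 enzymes of neighbouring genes with similar sequence, *Lrtm2*, *Fam198a*, and *Cspg5*, the proteoglycan neuroglycan C. *Cspg5* is also on the list of oligodendrocyte precursor markers and was at 4378 to 12630 in AC. For *Rfx4*, *Rorb*, *Slc13a5* and *Fam198a* the means of EC, PC and MG all lay below the minimum of the filter. The direction of their calls was therefore fixed in advance as well, and only the size of the difference is a result.

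Upstream sequences of 4 genes that stood high above all 3 others and whose window holds no exon of the GENCODE annotation are shown because they let the promoters of an astrocyte marker, a transporter, a nuclear receptor and a gap junction protein be read side by side. They are the 250 bases before the start of *Gfap* (chr11:102897201-102897450, minus strand), *Slc6a11* (chr6:114130991-114131240, plus strand), *Rorb* (chr19:19111197-19111446, minus strand, the upstream of 2 listed starts) and *Gjb6* (chr14:57133612-57133861, minus strand), from RefSeq on GRCm38.p6, 5′ to 3′. Capitals mark the half-site of RFX factors, GTTGCC or GGCAAC on the other strand.
Gfap: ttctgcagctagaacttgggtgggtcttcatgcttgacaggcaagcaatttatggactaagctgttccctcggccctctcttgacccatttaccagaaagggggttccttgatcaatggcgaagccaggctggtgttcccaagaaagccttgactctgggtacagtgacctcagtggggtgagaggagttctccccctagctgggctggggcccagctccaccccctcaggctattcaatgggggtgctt
Slc6a11: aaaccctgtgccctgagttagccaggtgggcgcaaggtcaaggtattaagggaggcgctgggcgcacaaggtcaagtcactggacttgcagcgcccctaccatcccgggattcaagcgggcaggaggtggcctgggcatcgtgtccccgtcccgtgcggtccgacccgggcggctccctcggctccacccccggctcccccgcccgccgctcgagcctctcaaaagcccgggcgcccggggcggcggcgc
Rorb: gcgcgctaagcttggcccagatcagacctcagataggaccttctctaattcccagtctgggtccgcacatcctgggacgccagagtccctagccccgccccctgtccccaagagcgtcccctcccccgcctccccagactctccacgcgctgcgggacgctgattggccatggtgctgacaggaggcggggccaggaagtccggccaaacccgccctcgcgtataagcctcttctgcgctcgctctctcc
Gjb6: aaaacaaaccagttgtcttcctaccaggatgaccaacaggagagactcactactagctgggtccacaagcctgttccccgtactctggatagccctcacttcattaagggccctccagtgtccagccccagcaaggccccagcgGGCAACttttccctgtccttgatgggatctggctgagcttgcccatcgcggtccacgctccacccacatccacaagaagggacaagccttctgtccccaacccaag

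The RFX half-site was present once, in *Gjb6*. The half-site of NFI factors, TTGGCA on either strand, was not in these 4 windows, and neither was the core of SOX factors, ACAAAG on either strand. The NFI and RFX letters share GGCA and can overlap. Among the 250-base windows of 12001 genes tested, 10.3% held the NFI, 12.4% the SOX and 10.8% the RFX letters. Of the genes at least 4-fold higher in AC these shares were 12.8%, 16.3% and 13.8%, and of those at least 4-fold lower 11.4%, 13.8% and 10.6%, and the median GC content was 59.6%, 58.4% and 58.4% in all, higher and lower windows. The shares are descriptions of letters and say nothing of binding.

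The 12 genes furthest below all 3 others had smallest log2 differences of 3.68 to 5.82 in size, with a largest adjusted p of 0.000201. *Phf11d* (chr14:59347407-59365470), a member of an interferon-inducible gene family with similar copies, was at 7, 11, 0, 0, 4 and 0 normalized counts in AC and at 59 to 389 in all other libraries. *Anxa3*, a membrane-binding annexin, was at 42 to 708 in AC, with the highest value in replicate 2, and at 8291 to 18714 in EC, 3751 to 4895 in PC and 5948 to 8132 in MG. *Tfpi*, the inhibitor of the tissue factor pathway of coagulation, was at 0 to 139 in AC and *Grap*, an adaptor of receptor tyrosine kinase signalling, at 10 to 211, both below every other library. *Calcrl*, the receptor subunit for CGRP and adrenomedullin, was at 1 to 63 against at least 84. The others were *Cbfa2t3*, *Hlx*, *Bik*, *Traf5*, *Atp10d*, *Map3k8* and *Ehd4*. The other cell types differed among themselves, the means of *Grap* being 4079 in EC, 1305 in PC and 1722 in MG.

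**Figure D4:**
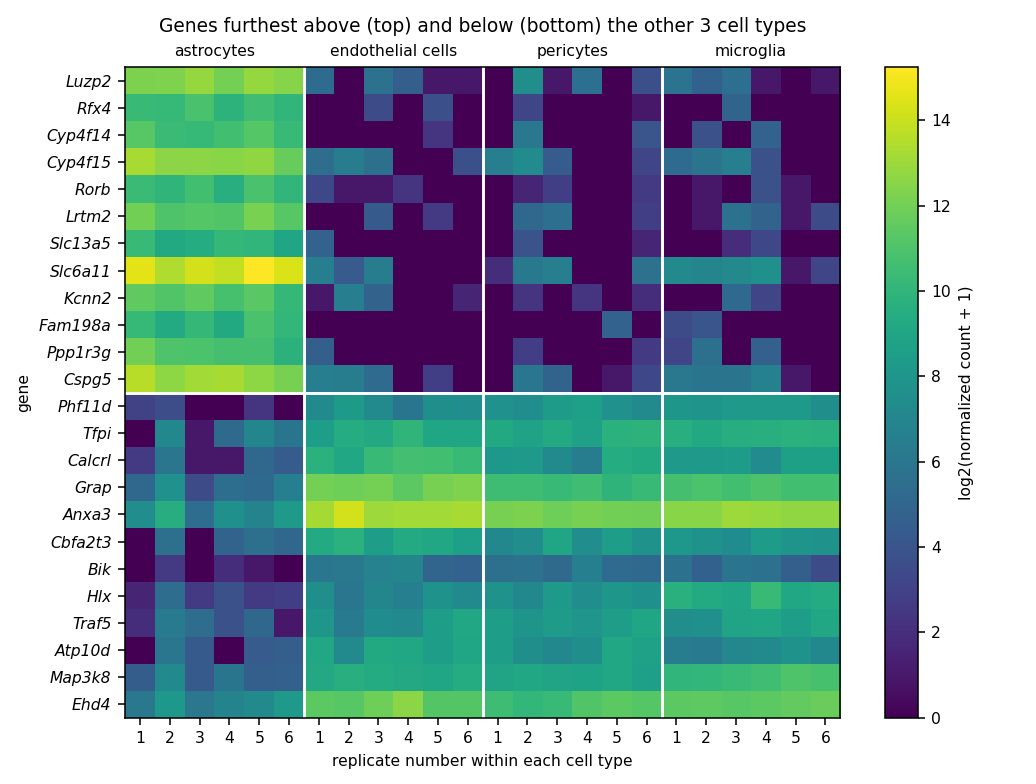
Levels of the 12 genes furthest above and the 12 furthest below the other 3 cell types, as log2(normalized count + 1), with 1 column for each of the 24 contralateral libraries. The upper genes are bright in the 6 AC columns alone, and the lower genes are darkest there, *Phf11d* being at 0 in 3 of 6 AC libraries.

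The counts for gene lists that follow are to be read beside the 16.1% of all genes tested that were higher than all 3 others and the 3.29% that were lower. Members of these lists were chosen with earlier results of these data known. The counts therefore describe the listed genes alone and are no test of a class of genes. Genes of glutamate and GABA handling, among them metabolic enzymes and the marker *Slc1a3*, were higher in AC for 11 of 12 tested, and none was lower. The count of 11 fell to 8 in replicates 1 to 4 alone and with a pseudocount of 0.1, and to 9 with the largest of 3 p-values. The list had median log2 differences of 7.78, 5.72 and 6.13 against EC, PC and MG, beside 0.48, 0.48 and 0.27 over all genes. *Slc1a2*, the main glutamate transporter GLT-1, was at 25906 to 47076 normalized counts in AC and at most 656 elsewhere. *Glul*, glutamine synthetase, was closer to the others, at 13381 to 48064 in AC and 9405 to 13534 in EC, with ranges that just overlapped and a difference of log2 1.14 (SE 0.22, adjusted p = 0.000103). *Pcx*, pyruvate carboxylase, was at 2189 to 4622 in AC and differed least from EC (log2 2.54, adjusted p = 0.0264). *Slc38a3*, a glutamine exporter, missed the call, since it was at 6562 to 15745 in AC and 2913 to 8531 in EC (log2 0.52, adjusted p = 0.280).

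Of 17 genes for ions, water and gap junctions 13 were higher and none lower, with medians of 7.35, 5.93 and 6.65. The 13 include the sort antigen gene *Atp1b2*, which is no finding. *Gja1* and *Gjb6*, the connexins 43 and 30 of astrocytic gap junctions, were at 34224 to 63432 and 20669 to 37296 in AC, against at most 2390 and 617 elsewhere. *Kcnj10*, the inward rectifier Kir4.1, was at 3024 to 4297 against at most 191, and *Hepacam* and *Mlc1*, whose products form a junctional complex of endfeet, had smallest differences of log2 7.73 and 7.07. *Dtna* and *Dag1*, parts of the dystrophin complex that anchors aquaporin 4, were not called against all 3, and *Dag1* was lower than in PC (log2 -1.16) but higher than in EC (1.13) and MG (2.69).

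Intermediate filaments divided. *Gfap* was higher, as was *S100b*, a calcium-binding protein, at 1512 to 2785 against at most 227. *Vim*, *Nes* and *Synm* were higher in EC and PC than in AC. *Vim*, vimentin, was at 2011, 2182, 1457, 2404, 10668 and 32860 in AC replicates 1 to 6, with the 2 high values in the libraries that were also high in ependymal and PC markers, and at 31368 to 57802 in PC.

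Of the 24 listed transcription factors 21 were called higher, and none was lower. Their medians were 7.14, 6.71 and 7.26, or 7.14, 6.45 and 7.05 with genes at 0 in a whole group set against the floor of 3 reads. *Sox9*, a factor that specifies glia, was at 5475 to 8821 against at most 266, *Sox2* at 379 to 1031 against at most 19, and *Hes5*, a Notch target, at 850 to 3336 against at most 34. Regional factors of the forebrain such as *Emx2* (35 to 186 against at most 9) and *Lhx2* (489 to 1280 against at most 92) were higher as well. *Gli1*, *Gli2* and *Gli3*, the mediators of Hedgehog signalling, were higher at means of 308.5, 510.0 and 931.0, as was the receptor gene *Ptch1*. The list's 3 exceptions were *Nfia*, which did not pass against PC (means of 1826 in AC and 1694 in PC), *Nfib*, with means of 2087 in AC and 2652 in EC, and *Etv5*, with means of 1632 in AC and 2008 in MG.

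Of the 18 listed lipid genes 16 were higher and none lower, with medians of 4.95, 4.94 and 6.77. *Apoe*, the main apolipoprotein of the brain, was at 165697 to 427153 in AC, and at 13148 to 35059 in EC, 1675 to 8370 in PC and 16861 to 26541 in MG, so that AC stood log2 3.32 above MG (adjusted p = 3.16e-09). *Clu*, clusterin, was at 77871 to 171003 against at most 20112. *Acsbg1*, an acyl-CoA synthetase, and *Elovl2*, an elongase of polyunsaturated fatty acids, had smallest differences of log2 8.23 and 8.13. The sterol synthesis genes *Hmgcs1*, *Sqle* and *Dhcr7* were higher by at least log2 1.42, 2.62 and 1.85. *Ptgds*, a prostaglandin D2 synthase that oligodendrocytes and leptomeninges are also known to make, was at 175378, 271050, 152892, 428611, 91389 and 24779 in AC replicates 1 to 6, and its highest and lowest values fell in replicates 4 and 6, as those of the summed oligodendrocyte markers did. *Mfge8*, an opsonin, was lower than in PC (log2 -0.76, adjusted p = 0.00442) and *Abca1*, a cholesterol exporter, lower than in MG (-0.61, adjusted p = 0.0421), although both were higher than in the other cell types.

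Among the most abundant genes per kb of exon, the 5 highest of those at least 4-fold above all 3 others were *Ptgds* (115634 normalized counts per kb in AC), *Apoe* (114027), *Gpr37l1* (40603), an orphan receptor, *Aldoc* (38838), the brain aldolase, and *Clu* (33660). *Aldoc* was at 77734 to 204660 normalized counts in AC and at most 2458 elsewhere.

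In the pathway of serine, glycine and folate, 8 of 13 genes were higher and none lower, with medians of 2.31, 2.98 and 1.94. *Phgdh* and *Psat1*, the first enzymes of L-serine synthesis, were higher, *Phgdh* at 2551 to 9121 in AC and 2036 to 2690 in MG, where the difference was log2 1.33 (adjusted p = 0.0176). *Gldc*, the glycine decarboxylase, was at 1173 to 2074 against at most 41. *Shmt1*, *Shmt2* and *Mthfd2*, of the folate cycle, were not called against all 3, with the highest of the 4 means in MG or PC. The count of 8 fell to 5 without replicate 1 and to 5 without replicate 5.

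Glycogen and glycolysis genes were called higher for 3 of 14 (*Ppp1r3g*, *Aldoc* and *Ldhb*), a share near the 16.1% of all genes and no result about the list, and none was lower. The list was above EC and MG, with medians of 3.82 and 2.33, and nearer to PC, with 0.67 beside 0.48 over all genes. *Pygm*, the muscle isoform of glycogen phosphorylase, was at 3317 to 8112 in AC, 2275 to 4435 in PC and at most 239 in EC and MG, and missed the call against PC (log2 0.51, adjusted p = 0.140). *Pygb* and *Gys1* likewise differed from PC by log2 0.19 and 0.47. *Ldhb* was higher than in each other type by at least log2 1.08 (adjusted p = 0.0227 against MG), while its paralog *Ldha* was lower than in EC and PC, by log2 -1.37 and -1.25.

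Of 16 secreted genes of synapse and matrix 7 were higher and none lower, with medians of 5.14, 2.34 and 5.89, or 5.16, 2.34 and 5.71 with genes at 0 in a group set against the floor. *Bcan* and *Ncan*, the lecticans brevican and neurocan, were at 24924 to 65924 and 1755 to 3676, against at most 2510 and 63 elsewhere. *Thbs4*, a thrombospondin, was at 19 to 257 in AC and at most 2 in any other library, whereas *Thbs1* averaged 140.7 in AC and 4811 in PC. *Chrdl1*, an antagonist of bone morphogenetic proteins, and *Megf10*, a phagocytic receptor, were higher as well. *Sparcl1*, hevin, was at 28951 to 63317 in AC but at 71486 to 101951 in PC, so that it was lower than in PC (log2 -0.88, adjusted p = 0.000501).

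Of the 21 listed receptors 14 were higher and none lower, with medians of 5.19, 5.22 and 6.50. *Fgfr3* was at 14064 to 29166 against at most 1430, and *Ntsr2*, a neurotensin receptor, at 18741 to 41838 against at most 560. *Grm3*, the main metabotropic glutamate receptor of adult astrocytes, was at 3515 to 7536 against at most 181, while *Grm5* was called at a low level, 1 to 59. *S1pr1*, a sphingosine 1-phosphate receptor, was at 21093 to 41227 in AC and 7607 to 27098 in EC and missed the call against EC (log2 0.57, adjusted p = 0.115). *Notch1* and *Fgfr1* did not differ from PC by the call, at log2 0.01 and 0.16.

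All 12 genes on the adhesion list were higher, with medians of 7.78, 7.20 and 7.84. *Cldn10*, a claudin, was at 10092 to 19232 against at most 661 and *Ncam1* at 7371 to 13733 against at most 559. *Cadm1* was the nearest, with a smallest difference of log2 1.86 to MG.

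**Figure D5:**
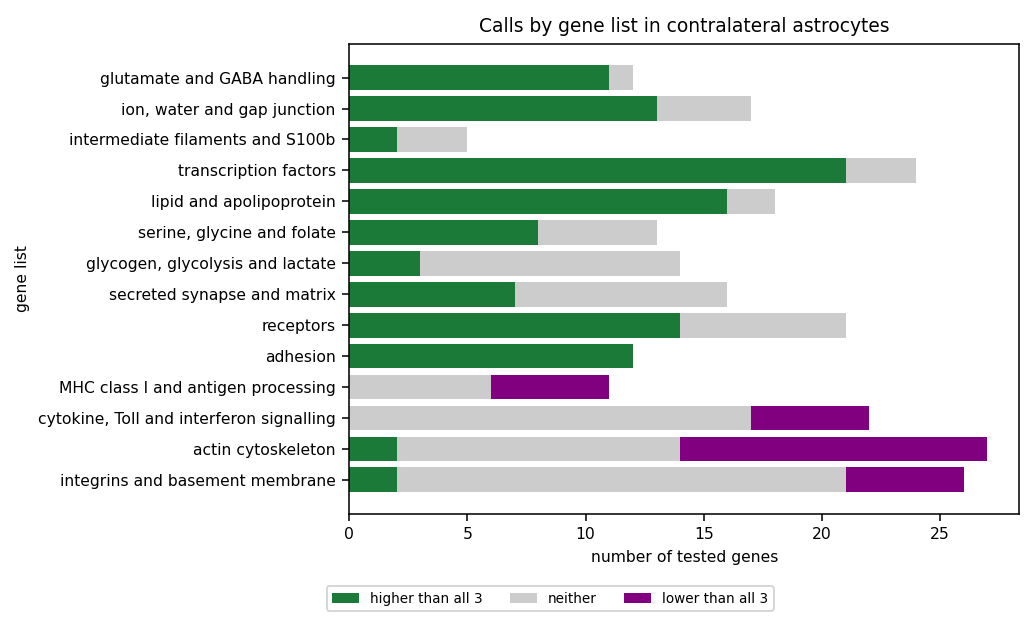
Number of tested genes on each of 14 lists that were higher in AC than in all 3 other cell types (green), lower than all 3 (purple) or neither (grey). Higher genes fill 11 of 12 places for glutamate and GABA handling and all 12 for adhesion, and lower genes appear on the lists of MHC class I, cytokine signalling, actin and integrins.

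Genes called lower than all 3 others, 3.29% of those tested, were present on the lists of antigen presentation, cytokine signalling, the actin cytoskeleton and adhesion to matrix, although on each of them other members, for all 4 lists the majority, were not called lower. Of 11 genes of MHC class I presentation 5 were lower (*B2m*, *H2-D1*, *H2-T23*, *Tapbp* and *Psmb8*) and none higher, with medians of -2.07, -0.45 and -1.90. *B2m*, the light chain of MHC class I, was at 971 to 3661 in AC, 2300 to 4754 in PC, 14614 to 58566 in EC and 27297 to 40048 in MG. AC thus overlapped PC, from which they differed by log2 -0.96 (adjusted p = 0.00989), and lay below every EC and MG library. *H2-D1*, a heavy chain, was at 976 to 3514 against at least 4672, and *H2-K1* was lower than in EC and MG but not PC (log2 0.27). The heavy chains have near-identical copies, and reads mapping to several places were left out of the counts, so that their levels are uncertain. The count of 5 fell to 3 without replicate 3 and to 2 in replicates 5 and 6 alone.

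Of 22 genes of cytokine, Toll and interferon signalling 5 were lower (among them *Myd88*, *Il6ra*, *Tgfbr2* and *Irf1*) and none higher, or 1 higher in replicates 5 and 6 alone, with medians of -1.45, -0.72 and -3.0. *Irf1*, an interferon-induced factor, was at 194 to 765 in AC and 472 to 5490 elsewhere, and *Tgfbr2*, a receptor of transforming growth factor β, at 135 to 1434 against 1370 to 9807. *Tlr3*, the receptor for double-stranded RNA, was an exception in level, at 1154 to 2663 in AC and at most 944 elsewhere, yet its difference from MG, log2 1.08, did not pass (adjusted p = 0.267). AC replicate 2, which held the most MG marker RNA, had the highest AC level of *Tlr2*, 732, and of *Il6ra*, 276.

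Of 27 actin genes 13 were lower and 2 higher, with medians of -1.31, -1.61 and -1.02, and the higher genes were 1 without replicate 4 and 1 in replicates 5 and 6 alone. *Actb* was at 7538 to 17421 in AC and at least 19253 in all 18 others. *Arpc1b*, *Arpc2*, *Arpc3* and *Arpc5*, subunits of the Arp2/3 complex, were lower, *Arpc1b* by log2 -3.14, -2.01 and -3.09 against EC, PC and MG, while its paralog *Arpc1a* was higher by 0.83, 1.25 and 1.69. The same opposition held in the ezrin family between *Msn* and *Ezr*, while the third member *Rdx*, radixin, was called in neither direction. *Msn*, moesin, was at 435 to 3493 against at least 3996, and *Ezr*, ezrin, which is known in fine astrocyte processes, was at 5864 to 14558 against at most 1726.

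Of 26 integrin and basement membrane genes 5 were lower (*Itga5*, *Itgb1*, *Itgb3*, *Nid2* and *Fn1*) and 2 higher (*Itgav* and *Itgb8*), with medians of -2.15, -3.70 and 2.24, which lie below 0 against EC and PC and above 0 against MG. The lower genes were 3 without replicate 1, without replicate 4, in replicates 1 to 4 alone, in replicates 5 and 6 alone and with the largest of 3 p-values, and the higher genes were 4 with a pseudocount of 10. *Itgb1*, the common β subunit, was at 1364 to 2685 against at least 3111. *Itgav* and *Itgb8*, whose products pair to activate transforming growth factor β, were at 1803 to 4061 and 1183 to 2079, against at most 1548 and 212. *Col4a1* and *Lamb2* were lower than in EC and PC and higher than in MG, and AC replicates 5 and 6, with more PC marker RNA, held the 2 highest AC levels of both.

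Paralog families differed within themselves. Of 32 tested members 16 were higher, again with *Atp1b2* among them, and none was lower. All 3 metallothioneins were higher, and *Mt3*, the brain isoform, stood furthest above the others (2834 to 15393 in AC and at most 421 elsewhere), with *Mt1* at 17126 to 71357 against at most 23171. Of the *Id* genes, *Id4* was higher (688 to 3341 against at most 77), *Id2* was higher than in EC and PC but missed the call against MG (log2 0.99, adjusted p = 0.0652), and *Id1* and *Id3* were lower than in EC and PC and higher than in MG by log2 1.75 and 3.46.

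AC replicates 5 and 6 differed from replicates 1 to 4, also within the list of higher genes. Of the 15238 genes with a mean of at least 10 in AC, 4072 (26.7%) differed at least 2-fold in mean log2 level between these replicates. For 153 of the 2812 (5.44%) both were at least 4-fold above all of replicates 1 to 4 after adding 1, against 300 of all genes tested (1.72%), and for 7 (0.249%) they were as far below, against 35 of all genes (0.200%). Among the 12 furthest, *Cfap221* and *Cfap54*, proteins of cilia and flagella, had means of 11.8 and 108.5 in replicates 1 to 4 and 306.0 and 2085.5 in replicates 5 and 6.

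The same comparison in the ipsilateral hemisphere, where the 6 ipsilateral AC libraries were set against 18 ipsilateral libraries, gave 2856 of 17033 genes higher than all 3 (16.8%) and 520 lower (3.05%). Titles and column names of the ipsilateral PC and MG libraries name opposite cell types, which a call against all 3 does not depend on. Of the contralateral genes 2179 higher and 348 lower were called in both hemispheres, which is 77.5% and 60.5% of the contralateral and 76.3% and 66.9% of the ipsilateral lists, and none was called in the opposite direction. Both hemispheres came from the same mice and were sorted with the same antibodies, so that these shares are no independent repeat. All 12 genes furthest above and 11 of the 12 furthest below were called again, and *Calcrl* was not. *Gfap* averaged 14752 normalized counts in ipsilateral AC (8805 to 28937), and *Slc1a3* 52389. *Phgdh*, *Psat1* and *Slc7a11*, for example, were higher than all 3 in the contralateral hemisphere alone by the call, a difference between hemispheres that was not tested.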

How the data were processed

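The analysis used 24 libraries of sorted AC, EC, PC and MG from contralateral hemispheres, 6 of each, and repeated the comparison in 24 ipsilateral libraries. The authors trimmed reads with Trimmomatic 0.38, aligned them to GRCm38 with STAR 2.6.1d, counted them on genes with featureCounts 1.6.3, leaving out reads on several genes or places, and normalized the counts with DESeq2 1.18.1. The deposited normalized counts, rounded to whole numbers, were treated as a score and not as raw counts, so that no count test was run. Columns were assigned by the sample labels.

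The test was limma 3.58.1 in R 4.3.3 (lmFit and eBayes with a trend, two-sided) on log2(normalized count + 1), with 1 mean per group, 3 contrasts and Benjamini-Hochberg adjustment over 17470 genes. It was checked on simulated data. Summaries and plots used Python 3.11.15 with numpy 2.4.6, pandas 2.3.3 and matplotlib 3.10.9. Exon lengths (GENCODE vM21, GRCm38) were matched for 99.9% of genes and divide a level only where genes are compared. Genes named are the markers and sort antigens, the 12 furthest above and below all 3 others without overlap of libraries, list members, the 5 highest per kb, and, chosen after their values were seen, genes with all 18 others at 0 and genes that divide the AC libraries. The members and lists were chosen with earlier results of these data known. 1 list gene, *Itga2*, was below the minimum and *Aldoa* was not analysed here. Some list members enter the counts and are not reported here by name.

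The methods state that the 4 cell types were isolated together from pooled tissue. Equal replicate numbers were taken to mark a shared pool, which the methods do not state. Libraries of the same number and different cell type correlated in their deviations with a mean r of 0.074 (-0.05 to 0.26, over 0.1 in 11 of 36 pairs), against -0.014 for other numbers. Alternatives were pseudocounts 0.1 and 10, other filters and scalings, a fit over all 48 libraries, the replicate number as a block, each replicate left out, replicates 1 to 4 or 5 and 6 alone, and the largest p of 3.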

Additional observations from a re-analysis of the deposited data

Results flagged for a closer look

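Of 42 gene levels and library measures examined in the 6 AC libraries, 8 had a lowest or highest library far from its nearest neighbour relative to the range (Dixon's test at the 95% level). Chance gives about 1 in 20 for normally distributed values, whereas the levels tested here were normalized counts, not on a log scale. All 8 were highest libraries, and 8 of 42 is not shown to exceed chance. In replicate 5, *Pdgfrb* was at 4332 (next highest 2229) and *Cspg4* at 1275 (next highest 561), and summed PC markers in that library were the highest of the 6, at 15.0% of their level in PC. In replicate 2, *Ptprc* was at 236 (next 89), *Itgam* at 108 (next 41), *Map3k8* at 154 (next 59), *Hlx* at 43 (next 13) and *Anxa3* at 708 (next 289), and summed MG markers were the highest there, at 6.52% of their level in MG. The part of these cells in the values was not tested. *Map3k8*, *Hlx* and *Anxa3* had been chosen for lying below every library of the other cell types in all 6 AC libraries, replicate 2 included. *Apoe* was at 427153 in replicate 1, against 231696 in the next library.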

How the results depend on the processing

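With the replicate number as a block, 2882 genes were higher and 600 lower than all 3 others, and the block moved no count by over 1.5 times and changed no call among the markers, sort antigens and furthest genes. A pseudocount of 10 left 1436 genes at least 4-fold higher in AC than in all 3 others, against 2272, by the shrinkage of low values that it brings. All other counts over all genes tested stayed within 1.5 times of the reported value under the alternatives run. Leaving out each replicate gave 2472 to 2819 higher and 456 to 661 lower genes. Replicates 1 to 4 alone shared 2059 higher and 397 lower genes with the full set, and replicates 5 and 6 alone 1971 and 332. The share of higher among called genes was 78.3% to 86.2% over the alternatives, against 83%. Requiring the largest of 3 p-values to pass gave 2509 and 484. The furthest genes were chosen from these same data for large differences without overlap. That they kept their calls was largely settled by this choice and says little of the other calls. For the markers, sort antigens and furthest genes, 635 alternative values kept direction and call, and 11 changed sign, all of sort antigen genes that were not called against the cell type nearest to AC. The difference of *Cdh5* from that cell type was log2 -1.13 in replicates 1 to 4 alone, -1.04 in replicates 5 and 6 alone and -0.60 to 1.04 with a replicate left out. That of *Ptprc* was -0.60 in replicates 5 and 6 alone and -0.47 to 1.16 with a replicate left out. That of *Itgam* was -0.10 with a pseudocount of 10, -0.047 in replicates 1 to 4 alone and -0.15 to 1.03 with a replicate left out. With 6 pools a group, small differences such as those of *Pygm* and *S1pr1* are not shown to be absent.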
